A study of Mus musculus with 16 samples.

Results

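Acot3, Cyp4a14, Fbxo31 and Glyctk are 4 of the 5205 genes listed in at least 1 of the 2 deposited tables of liver RNA, and they belong to the 752 genes listed in both. They were chosen by name because, on the AMLN diet, their levels were higher in mice whose platelets lack thrombospondin 1 than in their littermates. The difference between the genotypes on the AMLN diet is therefore given as a description with no test. Both diet comparisons reuse these AMLN-fed mice. The choice thus favours a fall on that diet in the littermates and a rise in mice lacking platelet thrombospondin 1. Only the comparison of the genotypes on the LF (low-fat) diet used none of the mice on which the choice rested.

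Livers came from 16 male C57BL6 mice, 4 in each of 4 groups, all kept for 32 weeks on a low-fat (LF) diet or on the AMLN diet, which is rich in fat, fructose and cholesterol and induces steatohepatitis. Both genotypes carried a floxed Thbs1, the gene of thrombospondin 1 (TSP1). TSP1F/F mice, named WT in the labels, carried no Cre, and TSP1ΔPf4 mice, named KO, also carried Pf4-Cre. This Cre is used to remove Thbs1 in megakaryocytes and the platelets made by them, and the paper mentions a more stringent driver. The paper also reports lower liver Thbs1 mRNA in AMLN-fed TSP1ΔPf4 mice. Whether all liver cells of these mice keep the gene was not tested here. Thbs1 is listed only in the table of the TSP1F/F mice, and its level could not be used here to check the genotype labels.

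The 4 genes serve different parts of metabolism and protein turnover. Acot3 encodes a peroxisomal acyl-CoA thioesterase, which splits long-chain fatty acyl-CoA into the free fatty acid and coenzyme A. Cyp4a14 encodes a cytochrome P450 of the endoplasmic reticulum that hydroxylates fatty acids at their last carbon, the first step of omega oxidation. Both are textbook targets of PPARα, the fatty acid-activated nuclear receptor that drives fatty acid oxidation in the fasting liver. Glyctk encodes glycerate kinase, which phosphorylates glycerate from the breakdown of fructose and serine and so returns its carbon to glycolysis or gluconeogenesis. Fbxo31 encodes an F-box protein, the subunit by which an SCF ubiquitin ligase recognises its substrates, of which cyclin D1 is the best known.

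Positions are those of mm10 (GRCm38) in the deposited tables and were the same in GENCODE M21. Acot3 (ENSMUSG00000021228) lies at chr12:84052144-84060402 on the forward strand, within a cluster that runs Acot2, Acot1, Acot4, Acot3, Acot5 and Acot6. Cyp4a14 (ENSMUSG00000028715) lies at chr4:115486200-115496142 on the reverse strand, beside Cyp4a10 and Cyp4a31. Fbxo31 (ENSMUSG00000052934) lies at chr8:121549440-121578806 and Glyctk (ENSMUSG00000020258) at chr9:106152857-106158138, both on the reverse strand. The longest coding transcripts have 4 exons in Acot3, 12 in Cyp4a14, 9 in Fbxo31 and 4 in Glyctk.

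The 250 bases upstream of the start site are shown for 3 of the genes, all higher in AMLN-fed TSP1ΔPf4 than AMLN-fed TSP1F/F mice. They are from RefSeq on GRCm38.p6, 5′ to 3′ on the strand of the gene, from chr12:84051894-84052143 (forward), chr8:121578807-121579056 (reverse) and chr9:106158139-106158388 (reverse), and Cyp4a14 had no entry. Capitals mark matches, on either strand, to 5 motifs. These were the nuclear receptor site, spelled AGGTCA in the search, the TATA box, searched with the letters TATAAA, the CCAAT box, which is named by its own letters, the GC box, searched with the letters GGGCGG, and the E-box, searched with the letters CACGTG.
Acot3: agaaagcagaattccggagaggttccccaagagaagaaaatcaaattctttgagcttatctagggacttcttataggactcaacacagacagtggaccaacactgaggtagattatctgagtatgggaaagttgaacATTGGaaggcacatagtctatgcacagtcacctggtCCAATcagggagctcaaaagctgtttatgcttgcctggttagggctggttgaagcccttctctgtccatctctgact
Fbxo31: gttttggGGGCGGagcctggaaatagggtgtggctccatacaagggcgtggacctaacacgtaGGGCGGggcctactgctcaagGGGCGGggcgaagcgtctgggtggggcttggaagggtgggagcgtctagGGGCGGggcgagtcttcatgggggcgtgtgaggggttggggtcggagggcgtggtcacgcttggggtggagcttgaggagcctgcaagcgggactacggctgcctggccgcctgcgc
Glyctk: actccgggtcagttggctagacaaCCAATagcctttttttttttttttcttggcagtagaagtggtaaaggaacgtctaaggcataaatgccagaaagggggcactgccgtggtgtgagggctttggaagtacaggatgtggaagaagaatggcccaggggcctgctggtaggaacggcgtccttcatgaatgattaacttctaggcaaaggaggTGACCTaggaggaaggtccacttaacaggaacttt

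The promoter of Fbxo31 had 4 GC boxes, a motif found at least once in 32.7% of the 32851 promoters of the same length, and 68% of its bases were G or C. That of Acot3 had 2 CCAAT boxes, and that of Glyctk had 1, a motif found at least once in 33.8% of promoters. How many promoters hold as many as 4 GC boxes or 2 CCAAT boxes was not counted. Glyctk had a nuclear receptor site 35 to 30 bases before its start, and 14% of promoters hold one. The DR1 element, a pair of such sites 1 base apart to which PPARα binds with its partner RXR, was also searched on both strands, and the best window in each of the 3 promoters matched 8 of its 12 fixed letters, as did a window at least as good in 74.5% of promoters. No motif of the 5 was shared by all 3 promoters within these 250 bases.

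Library totals ranged from 17127965 to 39753019 counts, with group medians of 18908942 (LF) and 27661650 (AMLN) in TSP1F/F and of 18838184 (LF) and 27148200 (AMLN) in TSP1ΔPf4 mice. Levels are counts scaled to the library total (CPM, the usual abbreviation), and FPKM, which also divides by gene length, is used where genes are set beside each other. The tables hold only genes that differed between the diets at an unadjusted p-value under 0.05, 2558 in TSP1F/F and 3399 in TSP1ΔPf4 mice, so each diet p-value below repeats a selection made on the same mice. All 4 genes passed the filter on low counts in every comparison, and the lowest count behind a level below was 259. Only 3 of 23 hepatocyte markers (G6pc, Serpina1a and Ttr) are listed in both tables, and their summed level lay between 6513 and 8920 CPM (LF) and between 2814 and 6057 CPM (AMLN) in TSP1F/F mice, and between 7240 and 8577 CPM (LF) and 4404 and 5841 CPM (AMLN) in TSP1ΔPf4 mice. The 4 genes were thus measured in whole liver, where fewer cells of a type and less RNA per cell cannot be told apart, and no value here ties them to hepatocytes. Of 12 markers of monocyte-derived macrophages 10 are in both tables, with a summed level of 48.7 to 432 CPM (LF) and 438 to 2378 CPM (AMLN) in TSP1F/F mice, against 47.3 to 118 CPM (LF) and 141 to 243 CPM (AMLN) in TSP1ΔPf4 mice. None of these 10 was at 0 in all mice of a group. The hepatocyte sums of the AMLN-fed genotypes overlapped, whereas the macrophage sums did not, and the part of either in the levels below was not tested.

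Acot3 was the most variable of the 4 genes. Its levels in LF-fed TSP1F/F mice were 20.7, 70.3, 38.0 and 90.6 CPM, and in AMLN-fed TSP1F/F mice 7.84, 21.6, 12.4 and 34.8 CPM. In TSP1ΔPf4 mice they were 77.9, 94.2, 193 and 198 CPM on the LF diet and 35.6, 60.6, 73.4 and 76.1 CPM on the AMLN diet. The highest AMLN-fed TSP1F/F mouse was just below the lowest AMLN-fed TSP1ΔPf4 mouse, and 2 AMLN-fed TSP1F/F mice lay within the LF range of their genotype. Group means were 54.9 ± 31.4 (LF) and 19.2 ± 11.9 (AMLN) in TSP1F/F and 140.9 ± 63.7 (LF) and 61.4 ± 18.5 (AMLN) in TSP1ΔPf4 mice (SD, n = 4 each). The order was thus AMLN-fed TSP1F/F, LF-fed TSP1F/F, AMLN-fed TSP1ΔPf4 and LF-fed TSP1ΔPf4, and only the last pair of neighbours did not overlap.

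Acot3 was lower on the AMLN diet in both genotypes, without passing the test in either. The log2 fold change was -1.52 (SE 0.53) in TSP1F/F mice, with an edgeR adjusted p = 0.420 (quasi-likelihood F test, Benjamini-Hochberg adjustment). In TSP1ΔPf4 mice it was -1.20 (SE 0.35, edgeR adjusted p = 0.164), and there every AMLN-fed mouse was below every LF-fed mouse. On the AMLN diet the mean was 3.20-fold higher in TSP1ΔPf4 mice, a fitted log2 difference of 1.68 (SE 0.43). The mean was also higher on the LF diet, with a 2.57-fold ratio, 3 of 4 TSP1ΔPf4 mice above every TSP1F/F mouse and a log2 difference of 1.36 (SE 0.47, edgeR adjusted p = 0.624, unadjusted p = 0.0152). The diet changes of the genotypes differed by 0.32 (SE 0.67) on the log2 scale.

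Reads of Acot3 may be shared with other genes. Its longest coding transcript has 3282 windows of 150 bases, the read length, and 13.5% of them also occur in a transcript of another gene, 8.53% in Gm49366, a gene on the same strand that overlaps it, and 164 windows in the antisense gene 4732463B04Rik. Among the paralogs, 1.65% of windows also occur in Acot1, 1.40% in Acot5 and 0.305% in Acot6, although the coding sequences of Acot3 and Acot5 are 85.8% identical. 4732463B04Rik, listed only for TSP1F/F mice, had 2.86 CPM on the LF and 0.742 CPM on the AMLN diet (log2 fold change -1.95, SE 0.64, edgeR adjusted p = 0.365). Whether counting used the strand is not stated, so reads of Acot3 and of this antisense gene cannot be told apart where they overlap.

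Cyp4a14 was by far the most abundant of the 4 genes per length, with group means between 510 and 1927 FPKM, against 5.57 to 41.0 FPKM for Acot3, 6.14 to 17.8 for Fbxo31 and 13.8 to 29.0 for Glyctk. Levels in TSP1F/F mice were 3530, 2359, 3155 and 5735 CPM on the LF diet and 1109, 1341, 505 and 2349 CPM on the AMLN diet. Those in TSP1ΔPf4 mice were 4684, 4679, 4695 and 5993 CPM on the LF diet and 3195, 3596, 4095 and 3854 CPM on the AMLN diet. The AMLN-fed TSP1F/F mice were lowest, with no overlap with any other group, and the AMLN-fed TSP1ΔPf4 mice lay within the range of the LF-fed TSP1F/F mice. This single gene took between 0.0505% and 0.599% of all counts of a library.

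The AMLN-fed level of Cyp4a14 differed 2.78-fold between the genotypes, 3685 ± 385 CPM in TSP1ΔPf4 against 1326 ± 768 CPM in TSP1F/F mice (SD, n = 4 each), a log2 difference of 1.47 (SE 0.41). On the LF diet the means were 5013 ± 653 and 3695 ± 1445 CPM, a log2 difference of 0.44 (SE 0.28, edgeR adjusted p = 0.676), and 1 TSP1ΔPf4 mouse was above every TSP1F/F mouse. The diet change was -1.48 (SE 0.46, edgeR adjusted p = 0.330) in TSP1F/F and -0.44 (SE 0.17, edgeR adjusted p = 0.296) in TSP1ΔPf4 mice on the log2 scale. In TSP1ΔPf4 mice it was only -0.12 with TMM scaling and -0.11 with DESeq2, which both scale by the selected genes, and -0.43 with the authors' deposited size factors. No AMLN-fed mouse overlapped the LF-fed mice of its own genotype, and the diet changes of the genotypes differed by 1.03 (SE 0.51). No window of 150 bases of the Cyp4a14 transcript occurs in a transcript of another gene, and the nearest coding sequence among its paralogs, that of Cyp4a30b, is 79.9% identical.

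Fbxo31 showed opposite diet differences in the genotypes. Its levels in TSP1F/F mice were 47.2, 40.4, 48.4 and 63.8 CPM on the LF diet and 37.6, 38.5, 21.6 and 37.1 CPM on the AMLN diet. In TSP1ΔPf4 mice they were 73.7, 90.5, 58.0 and 75.7 CPM on the LF diet and 102, 106, 95.2 and 87.5 CPM on the AMLN diet. Every AMLN-fed TSP1F/F mouse was below every LF-fed one, whereas 3 of 4 AMLN-fed TSP1ΔPf4 mice were above every LF-fed one of their genotype. The log2 fold change for diet was -0.57 (SE 0.27, edgeR adjusted p = 0.680) in TSP1F/F and 0.39 (SE 0.20, edgeR adjusted p = 0.537) in TSP1ΔPf4 mice. Neither reached an unadjusted p under 0.05 in this fit. With TMM the unadjusted edgeR p was 0.0245 in TSP1F/F and 0.0094 in TSP1ΔPf4 mice, and that of DESeq2 was 0.0065 and 0.0043. Both of these scale by the selected genes. The unadjusted edgeR p was 0.0479 and 0.0668 with the authors' deposited size factors and 0.0583 and 0.0751 with no filter on low counts. With a block for the replicate number it was 0.0933 and 0.141. The adjusted p stayed above 0.05 in both genotypes with each of these.

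Group means of Fbxo31 were 33.7 ± 8.10 CPM in AMLN-fed and 49.9 ± 9.90 CPM in LF-fed TSP1F/F mice, and 97.6 ± 8.01 and 74.5 ± 13.3 CPM in the corresponding TSP1ΔPf4 mice (SD, n = 4 each). The ratio between the genotypes was 2.90 on the AMLN diet (log2 difference 1.54, SE 0.27) and 1.49 on the LF diet (0.58, SE 0.25, edgeR adjusted p = 0.676, unadjusted p = 0.0387), with 3 of 4 LF-fed TSP1ΔPf4 mice above every LF-fed TSP1F/F mouse. The diet changes differed by 0.96 (SE 0.33). Fbxo31 lies inside Gm20388, annotated on the opposite strand, but no window of 150 bases of its transcript occurs in a transcript of another gene.

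Glyctk was the gene with the least spread between TSP1F/F mice and with no genotype gap on the LF diet. In TSP1F/F mice its levels were 88.9, 86.2, 76.6 and 93.3 CPM on the LF diet and 63.3, 57.3, 60.7 and 52.8 CPM on the AMLN diet. In TSP1ΔPf4 mice they were 85.9, 92.0, 71.1 and 77.7 CPM on the LF diet and 134, 138, 125 and 93.3 CPM on the AMLN diet. The diets did not overlap in either genotype, with the AMLN-fed mice below in TSP1F/F and above in TSP1ΔPf4 mice, and the LF-fed mice of both genotypes overlapped. The highest LF-fed TSP1F/F mouse and the lowest AMLN-fed TSP1ΔPf4 mouse were level at 93.3 CPM.

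The means of Glyctk were 86.3 ± 7.06 (LF) and 58.5 ± 4.53 (AMLN) CPM in TSP1F/F and 81.7 ± 9.18 (LF) and 122.7 ± 20.4 (AMLN) CPM in TSP1ΔPf4 mice (SD, n = 4 each). For diet the log2 fold change was -0.56 (SE 0.20, edgeR adjusted p = 0.456) in TSP1F/F and 0.59 (SE 0.20, edgeR adjusted p = 0.235) in TSP1ΔPf4 mice, similar in size and opposite in sign. The genotypes differed by 1.07 (SE 0.25) on the AMLN diet, a 2.10-fold ratio of means, and by -0.08 (SE 0.21, edgeR adjusted p = 0.910) on the LF diet. The diet changes of the genotypes differed by 1.15 (SE 0.28). In the Glyctk transcript 36.8% of windows of 150 bases also occur, on the other strand, in the antisense gene D030055H07Rik, so these counts may hold reads of both.

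**Figure D1:**
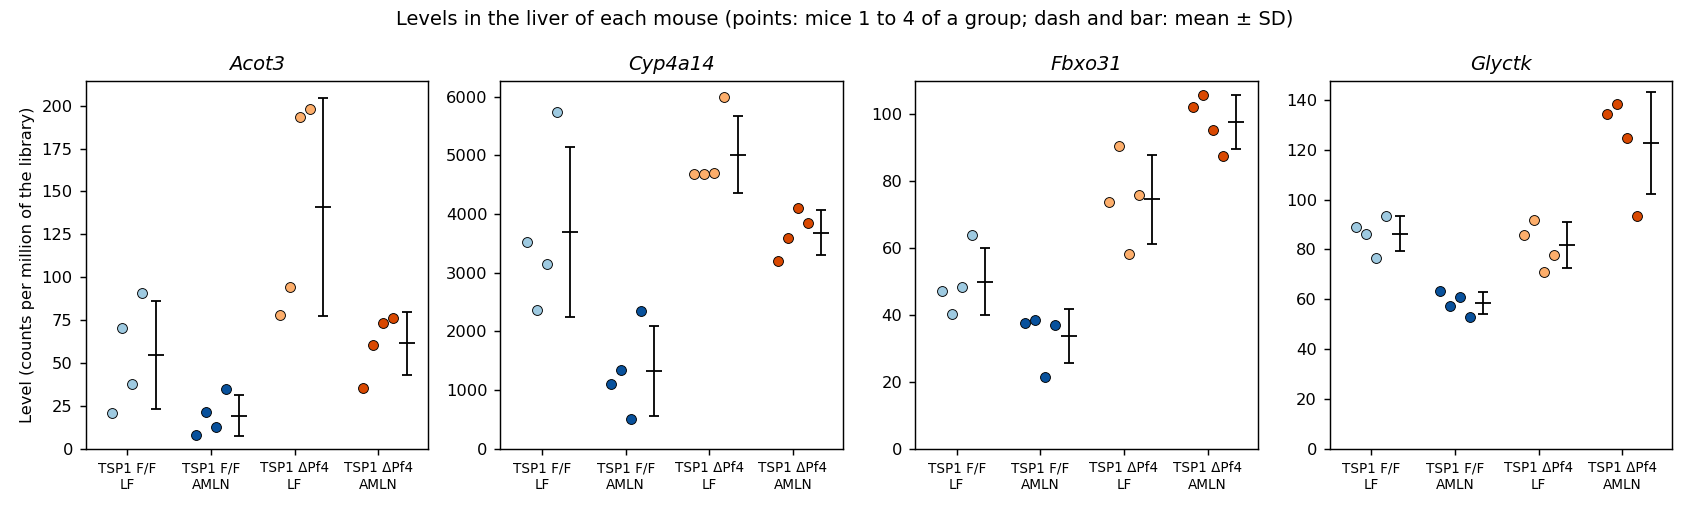
CPM of each gene (vertical axes, from 0) in each of the 16 mice, grouped by genotype and diet, with the group mean and SD beside the points. For all 4 genes the 4 AMLN-fed TSP1F/F mice lie below the 4 AMLN-fed TSP1ΔPf4 mice; for Glyctk the LF-fed genotypes share a range, from 71.1 to 93.3 CPM.

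With edgeR, adjusted over 21951 genes for diet, no gene of the 4 passed the test in any comparison that was tested. With DESeq2 Acot3 (adjusted p = 0.0281), Cyp4a14 (0.0109) and Glyctk (0.00461) passed for diet in TSP1F/F mice and Glyctk (adjusted p = 0.0109) in TSP1ΔPf4 mice. With edgeR adjusted over the listed genes alone Acot3, Cyp4a14 and Glyctk passed in both genotypes. These genes had been selected on the same mice, and 1124 of 2096 tested passed in TSP1F/F and 2187 of 3089 in TSP1ΔPf4 mice, so passing there is no added evidence. In TSP1F/F mice 2 of 2096 genes tested (0.0954%) were called lower and 38 (1.81%) higher on the AMLN diet, and in TSP1ΔPf4 mice 6 of 3089 (0.194%) were called lower and 21 (0.68%) higher, a call being an edgeR adjusted p under 0.05 and a log2 change over 0.25 in size. The split depended on the method: DESeq2 called 392 lower and 257 higher in TSP1F/F and 306 lower and 835 higher in TSP1ΔPf4 mice, and edgeR adjusted over the listed genes alone called 317 lower and 807 higher and 1362 lower and 825 higher. At an unadjusted p under 0.05 in the main edgeR fit, 3 of the 4 genes (Acot3, Cyp4a14 and Glyctk) were lower in TSP1F/F mice, as were 27.1% of the genes tested, while 53% were higher. In TSP1ΔPf4 mice Acot3 and Cyp4a14 were lower at that level, beside 51.9% of the genes tested, and Glyctk was higher, beside 33.8%. The members' diet differences are thus of a kind common in tables selected for them.

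In TSP1F/F mice the diets did not overlap for Cyp4a14, Fbxo31 and Glyctk, AMLN lower, which also held for 15.6% of the genes tested, while 36.6% did not overlap with AMLN higher. In TSP1ΔPf4 mice they did not overlap for Acot3 and Cyp4a14, AMLN lower (29.1% of genes), and for Glyctk, AMLN higher (20.4%). On the LF diet no gene of the 4 separated the genotypes, where 3.44% of the 640 genes tested did so with TSP1ΔPf4 higher and 1.56% with it lower. On the AMLN diet, the comparison by which the genes were chosen, all 4 separated them with TSP1ΔPf4 higher, where 2.59% of 733 genes did so and 12.4% did with it lower.

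Over the genes in both tables, few separated the LF-fed genotypes. With edgeR 0 of 640 genes were called, and DESeq2 called 1. At an unadjusted p under 0.05, TSP1ΔPf4 mice were higher in 25 genes (3.91%), Acot3 and Fbxo31 among them, and lower in 19 (2.97%). The AMLN-fed genotypes differed in more genes, with 4 called higher (0.546%) and 62 lower (8.46%) in TSP1ΔPf4 mice (11 higher and 37 lower with TMM, 17 and 56 with DESeq2), and the median log2 difference of all 733 genes was -0.38. The 4 genes were chosen on this comparison, and in its ranking by log2 difference Acot3 was 3rd, Fbxo31 5th, Cyp4a14 6th and Glyctk 8th from the top.

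**Figure D2:**
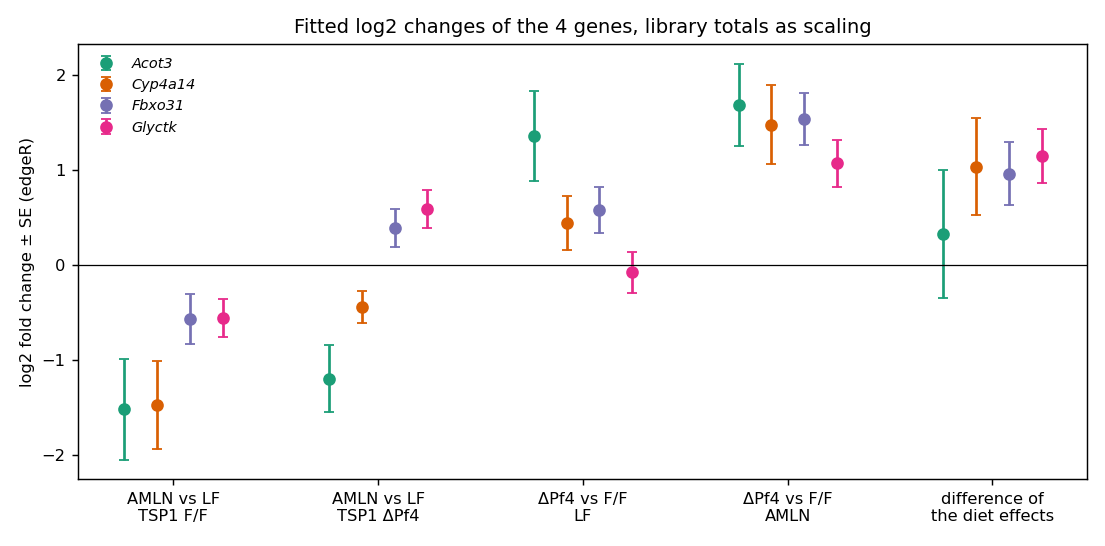
Log2 fold changes from edgeR (vertical axis, bars: SE) of the 4 genes for AMLN against LF in each genotype, for TSP1ΔPf4 against TSP1F/F on each diet, and for the difference of the diet changes. Fbxo31 and Glyctk lie below 0 for diet in TSP1F/F and above 0 in TSP1ΔPf4 mice, and the genotype values on the AMLN diet, by which the genes were chosen, run from 1.07 to 1.68.

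The opposite diet signs of Fbxo31 and Glyctk were uncommon among genes in both tables. Of 687 genes tested in both, 423 (61.6%) had a positive diet change in both genotypes and 221 (32.2%) a negative one in both, as did Acot3 and Cyp4a14. Only 11 (1.60%) were negative in TSP1F/F and positive in TSP1ΔPf4 mice, and Fbxo31 and Glyctk were 2 of these, while 32 (4.66%) had the reverse pattern. Since a gene low in AMLN-fed TSP1F/F and high in AMLN-fed TSP1ΔPf4 mice was what the choice asked for, this is a description of the genes chosen.

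**Figure D3:**
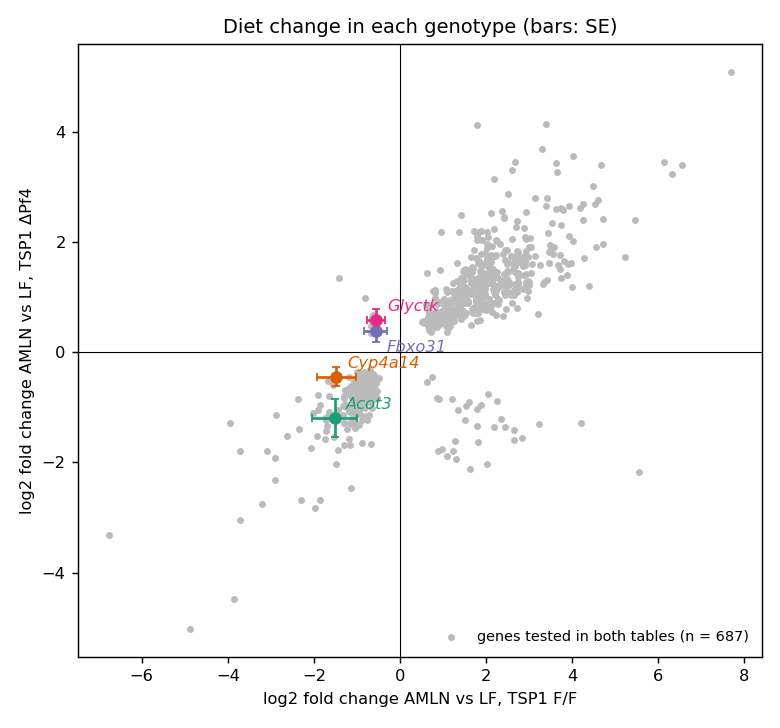
Log2 fold change for diet in TSP1F/F (horizontal) against that in TSP1ΔPf4 mice (vertical) for the 687 genes tested in both tables, with the 4 genes in colour and bars for their SE. The genotypes share no mice; Acot3 and Cyp4a14 lie in the lower left with 221 genes negative in both, and Fbxo31 and Glyctk in the sparse upper left with 11. The empty bands beside 0 reflect the selection of the listed genes.

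Across the 16 mice the pairs of genes varied together to different degrees once the group means had been removed, as a description with no test. Within groups, Pearson's r of log2(CPM + 1) was 0.73 for Cyp4a14 and Fbxo31, 0.49 for Acot3 and Cyp4a14 and 0.36 for Fbxo31 and Glyctk. It was 0.05 for Acot3 and Fbxo31, -0.17 for Cyp4a14 and Glyctk and -0.44 for Acot3 and Glyctk. All values of a mouse share its library total, and with TMM scaling the pair Fbxo31 and Glyctk reached 0.78 and Cyp4a14 and Glyctk 0.44, so the weaker values depend on the scaling. The AMLN-fed TSP1F/F mouse 3 was lowest of all 16 in Cyp4a14 and Fbxo31, at 505 and 21.6 CPM, and also lowest in the summed hepatocyte markers, at 2814 CPM. AMLN-fed TSP1F/F mouse 4 had the highest macrophage sum, 2378 CPM, and the highest Acot3 and Cyp4a14 of its group. Its Glyctk, at 52.8 CPM, was the lowest of its group. Without mouse 3 the AMLN genotype difference was 1.20 for Cyp4a14 and 1.37 for Fbxo31, and without mouse 4 it was 2.14 for Acot3 and 1.90 for Cyp4a14 on the log2 scale.

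**Figure D4:**
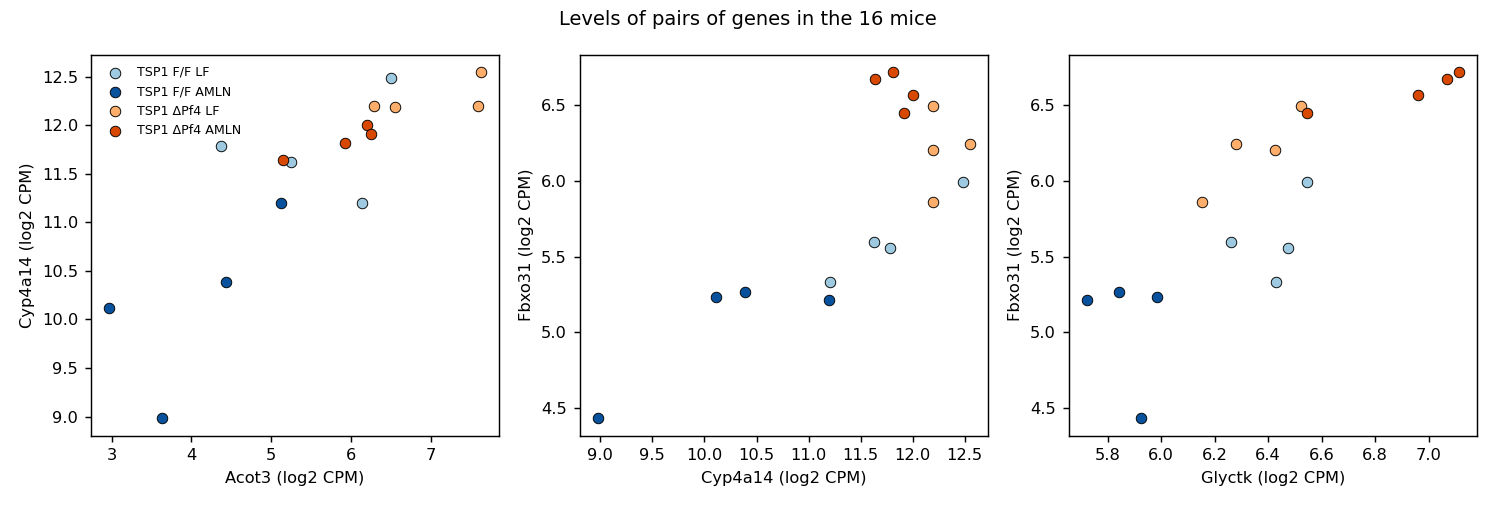
Log2 CPM of Acot3 against Cyp4a14, Cyp4a14 against Fbxo31 and Glyctk against Fbxo31 in the 16 mice, coloured by genotype and diet. AMLN-fed TSP1F/F mice lie at the lower left of each panel; the lowest point for Fbxo31, at 21.6 CPM, is a single AMLN-fed TSP1F/F mouse.

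The genes most like each member over all 16 mice, group differences included, were named by Pearson's r of log2(CPM + 1). For Acot3 the highest r of 733 genes were with Acaa2 (0.84), a mitochondrial thiolase of fatty acid oxidation, Ces1d (0.83), a carboxylesterase, Cyp4a14 (0.83), the kinase Pim3 (0.82) and Etnppl (0.76), an enzyme of ethanolamine phosphate breakdown. For Cyp4a14 they were with Acaa2 (0.87), the ethanolamine kinase Etnk2 (0.86), the soluble epoxide hydrolase Ephx2 (0.86), Tedc2 (0.85) and Sdc2 (0.84). Fbxo31 was most like Glyctk (0.83) and Cyp4a14 (0.79), followed by Slc10a1 (0.69), the bile acid uptake carrier, Etnk2 (0.69) and Serpina1d (0.62). Glyctk was most like Fbxo31 (0.83), the proteasome subunit Psmd1 (0.80), Gabpa (0.70), Acsm3 (0.61) and Slc10a1 (0.57). The median r over all genes lay between -0.46 and -0.15 for the 4 members, below 0 for each. Within groups Glyctk had an r of -0.13 with Gabpa and of -0.49 with Acsm3, opposite in sign to the values over all mice. The members were chosen for a shared difference between the AMLN-fed groups, so a high r between them over all mice was built in. Within groups it was 0.36 for Fbxo31 and Glyctk, 0.73 for Cyp4a14 and Fbxo31 and 0.49 for Acot3 and Cyp4a14.

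Acaa2 itself had 1201 CPM on the LF and 708 CPM on the AMLN diet in TSP1F/F mice and 1350 and 986 CPM in TSP1ΔPf4 mice. Its diet change was -0.76 (SE 0.26, edgeR adjusted p = 0.407) in TSP1F/F and -0.45 (SE 0.17, edgeR adjusted p = 0.282) in TSP1ΔPf4 mice. On the AMLN diet the genotypes differed by 0.48 (SE 0.27) in log2 level of Acaa2. This was less than for any of the 4 genes, which were chosen by this difference.

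Close relatives of Acot3 and Cyp4a14 are listed mostly for 1 genotype. Of 17 other acyl-CoA thioesterase genes 3 are listed for TSP1F/F mice (2 lower, 1 higher) and 6 for TSP1ΔPf4 mice (3 lower, 3 higher), and none was called. Acot1, the cytosolic relative in the same cluster, had 276 ± 103 CPM on the LF and 88.1 ± 32.2 CPM on the AMLN diet in TSP1F/F mice (SD, n = 4 each), a log2 change of -1.65 (SE 0.36, edgeR adjusted p = 0.115) close to that of Acot3. The mitochondrial Acot2, listed for TSP1ΔPf4 mice, had the opposite sign to Acot3 there, 27.8 CPM on the LF and 49.5 CPM on the AMLN diet (log2 change 0.83, SE 0.23, edgeR adjusted p = 0.145). Acot6, the only thioesterase besides Acot3 in both tables, stayed under 4 CPM in every mouse, with a log2 change of 2.52 (SE 1.12) in TSP1F/F and 1.63 (SE 0.54) in TSP1ΔPf4 mice.

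The Cyp4a genes other than Cyp4a14 had negative diet changes wherever they are listed. Cyp4a10 had 2012 ± 736 CPM on the LF and 1049 ± 336 CPM on the AMLN diet in TSP1F/F mice (log2 change -0.94, SE 0.36, edgeR adjusted p = 0.498), and Cyp4a31 had 21.6 and 9.47 CPM (-1.19, SE 0.58, edgeR adjusted p = 0.726). Cyp4a32, listed for TSP1ΔPf4 mice, had 52.6 and 34.9 CPM (-0.59, SE 0.22, edgeR adjusted p = 0.285). Of the Cyp4f genes, which act on leukotrienes and long-chain fatty acids, Cyp4f18 had positive changes in both genotypes, 3.44 (SE 1.08) in TSP1F/F and 2.16 (SE 0.87) in TSP1ΔPf4 mice, from means under 0.3 CPM on the LF diet. Of 19 other Cyp4 genes 4 are listed for TSP1F/F and 2 for TSP1ΔPf4 mice, and none was called.

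Of 44 other PPARα target genes 23 were tested in TSP1F/F mice, 22 with a negative and 1 with a positive change. At an unadjusted p under 0.05, 19 were lower, beside 27.1% of all genes tested. Of the 23, 0 were called, where 0.0954% of all genes tested were called lower and 1.81% higher. Their median log2 change was -0.77, where the median over all genes tested was 1.15. Of 11 tested in TSP1ΔPf4 mice 6 had a negative and 5 a positive change, and 0 were called. An unadjusted p under 0.05 was reached by 3 of the negative and 5 of the positive ones. Over all genes tested these shares were 51.9% and 33.8%. The median was -0.32 beside -0.54 over all genes. Which targets are listed differs between the genotypes, so the medians are over different genes.

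Only 5 PPARα targets besides Acot3 and Cyp4a14 are in both tables, Cd36, Ech1, Eci2, Fabp1 and Vnn3. On the AMLN diet all 5 had a log2 difference between the genotypes above 0, as did 197 of all 733 genes tested. Their median was 0.07, where that over all 733 genes was -0.38. Fabp1, the liver fatty acid-binding protein, differed by 0.28 (SE 0.41) and Eci2, a peroxisomal isomerase, by 0.25 (SE 0.27), against 1.68 for Acot3 and 1.47 for Cyp4a14. Acot3 and Cyp4a14 were chosen by this difference, so a gap to the other targets was built in. AMLN-fed means in TSP1F/F and TSP1ΔPf4 mice were close for Ech1 (512 and 515 CPM), Cd36 (293 and 308 CPM) and Vnn3 (78.0 and 81.7 CPM). On the LF diet 1 of the 5 was above and 4 below 0, where 339 of the 640 genes tested were above and 301 below. For diet Ech1 changed by -0.75 (SE 0.31) in TSP1F/F and -0.64 (SE 0.20) in TSP1ΔPf4 mice on the log2 scale, and Cd36, the fatty acid uptake receptor, was positive in both, 0.80 (SE 0.39) and 1.13 (SE 0.20, edgeR adjusted p = 0.0640). Of 14 receptors and cofactors of this pathway, Nr1h4 (-0.66, SE 0.26, TSP1F/F mice) and Pparg (1.00, SE 0.27, TSP1ΔPf4 mice) are the 2 listed, and neither was called.

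**Figure D5:**
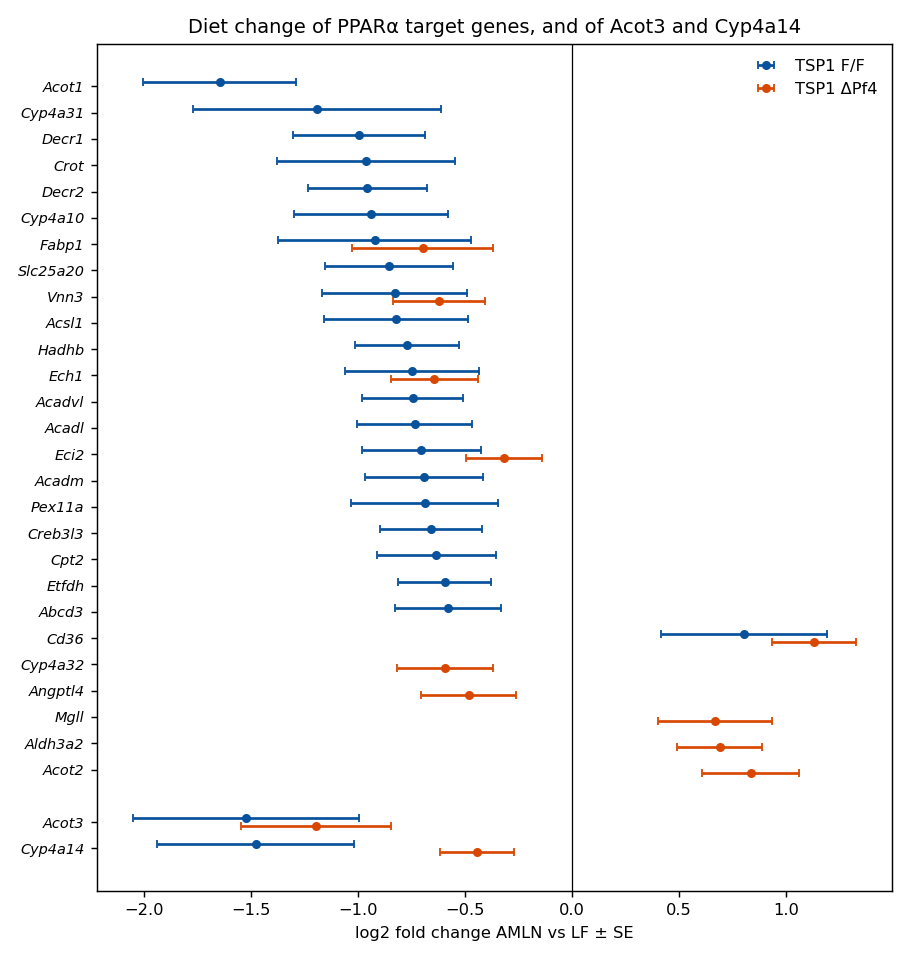
Log2 fold change for diet (horizontal axis, bars: SE) of PPARα target genes tested in TSP1F/F (blue) or TSP1ΔPf4 (orange) mice, with Acot3 and Cyp4a14 at the bottom. Besides these 2 genes, 22 of the 23 targets tested in TSP1F/F mice are plotted and 21 of them lie below 0, and 10 of the 11 tested in TSP1ΔPf4 mice are plotted and 6 of them do.

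Among enzymes of the pathways around Glyctk, none listed for both genotypes had opposite diet signs. Of 21 other genes of fructose, glycerate and serine metabolism 8 are listed for TSP1F/F mice (6 lower, 2 higher) and 6 for TSP1ΔPf4 mice (4 lower, 2 higher), and none was called. Hao1, which oxidises glycolate, and Agxt, which transaminates glyoxylate, are in both tables with negative diet changes in both genotypes, -1.19 (SE 0.35) and -0.66 (SE 0.26) for Hao1 and -0.81 (SE 0.28) and -0.84 (SE 0.21) for Agxt in TSP1F/F and TSP1ΔPf4 mice. On the AMLN diet Hao1 and Agxt had similar means in TSP1F/F and TSP1ΔPf4 mice, 204 and 194 CPM for Hao1 and 212 and 199.6 CPM for Agxt. Glyctk differed 2.10-fold there, but it was chosen by that difference. Khk, the kinase that starts fructose breakdown, was listed for TSP1ΔPf4 mice with 673 CPM on the LF and 292 CPM on the AMLN diet (log2 change -1.20, SE 0.28, edgeR adjusted p = 0.107), opposite in sign to Glyctk in the same mice.

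Of the other F-box proteins, Fbxo9 is the only one in both tables, and its diet differences had the same signs as those of Fbxo31. Its means were 60.8 ± 19.7 (LF) and 38.2 ± 2.66 (AMLN) CPM in TSP1F/F and 46.7 ± 4.73 (LF) and 59.6 ± 7.23 (AMLN) CPM in TSP1ΔPf4 mice (SD, n = 4 each). The log2 change for diet was -0.67 (SE 0.27, edgeR adjusted p = 0.533) and 0.35 (SE 0.18, edgeR adjusted p = 0.573), and on the AMLN diet every TSP1ΔPf4 mouse was above every TSP1F/F mouse, by 0.64 (SE 0.24, edgeR adjusted p = 0.112). Unlike Fbxo31, Fbxo9 had a negative genotype difference on the LF diet, -0.38 (SE 0.27). In all, 3 other F-box genes were tested in TSP1F/F and 6 in TSP1ΔPf4 mice, and none was called.

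Ccnd1, the gene of the Fbxo31 substrate cyclin D1, had 4.48 and 16.1 CPM on the LF and AMLN diet in TSP1F/F mice (log2 change 1.84, SE 0.67, edgeR adjusted p = 0.466) and 5.32 and 13.7 CPM in TSP1ΔPf4 mice (1.37, SE 0.40, edgeR adjusted p = 0.165). The AMLN-fed genotypes differed by -0.23 (SE 0.52) in Ccnd1, smaller than the error. Of the SCF core, Rbx1 and Skp1a are listed for TSP1ΔPf4 mice with log2 changes of -0.85 (SE 0.24, edgeR adjusted p = 0.151) and -0.52 (SE 0.25, edgeR adjusted p = 0.447), opposite in sign to Fbxo31 there. RNA levels do not show how much of these proteins was present.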

How the data were processed

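Liver RNA of 16 mice, 4 per group by the labels, was sequenced by the authors as paired reads of 150 bases. The paper names STAR and the submitters' processing notes name HISAT2 as the aligner, both with mm10, and the counting program, annotation and strand setting are not given in the sources used here. The authors deposited 1 table per genotype with counts per gene, signal (counts divided by 1 size factor per library) and FPKM for each mouse. The authors' log2 fold changes and adjusted p-values from DESeq2 were not used, and their deposited unadjusted p-value was read only to see that all listed genes lay under 0.05. All 48 columns of single mice were matched to a mouse and 0 were left over.

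Library totals were computed from counts, gene length and FPKM, because TMM needs unselected genes. Genes kept by filterByExpr entered the quasi-likelihood F test of edgeR 4.0.16 in R 4.3.3 and called at an adjusted p under 0.05 and a log2 change over 0.25 in size. The Benjamini-Hochberg adjustment for diet covered the 21951 protein-coding genes of GENCODE M21, unlisted genes being counted as not changed, and that for genotype the genes in both tables that were tested. The labels do not say more of the mice than group and number, and the spread between them carries all p-values. The members and gene lists were chosen with earlier results of these data known. Named were the members, for each the 5 genes most like it by Pearson's r over 16 mice, and from each list the genes in both tables, those in the members' clusters and otherwise up to 4 with the smallest p. Cell type markers were summed per mouse. Alternatives were TMM, DESeq2 1.42.0, no filter, a replicate block, adjustment over listed genes only, all 16 mice in 1 fit, FPKM, a pseudocount of 0.1, each mouse left out, and, added after seeing the data, the deposited size factors and the replicate block for the AMLN-fed genotypes. The fit was checked on simulated data. Start sites and promoters were from RefSeq, and shared windows and coding identity (Biopython 1.88 global alignment) from GENCODE M21 transcripts. A few members of the gene lists enter the counts and medians but are not reported here by name.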

Additional observations from a re-analysis of the deposited data

Results flagged for a closer look

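Of the 16 sets of 4 mice (4 genes in 4 groups) 2 held a mouse far from the others, where chance alone marks about 1 in 20 sets. For Cyp4a14, LF-fed TSP1ΔPf4 mouse 4 had 5993 CPM where the other 3 had 4679 to 4695, a group whose other members happened to lie close together. For Fbxo31, AMLN-fed TSP1F/F mouse 3 had 21.6 CPM where the other 3 had 37.1 to 38.5, and without this mouse the log2 difference between the AMLN-fed genotypes was 1.37.

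For Fbxo31 and Glyctk every AMLN-fed TSP1F/F mouse was below the LF mean of its genotype and every AMLN-fed TSP1ΔPf4 mouse above that of its own. The diet changes differed by 0.96 (SE 0.33) for Fbxo31 and 1.15 (SE 0.28) for Glyctk on the log2 scale, and the difference was not tested because the genes were chosen on a contrast within it.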

How the results depend on the processing

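Of 376 values recomputed under alternatives, 324 kept their direction and their side of the threshold or stayed close, and no member's diet or genotype log2 change reversed. The diet change of Cyp4a14 in TSP1ΔPf4 mice shrank from -0.44 to -0.12 with TMM (edgeR unadjusted p = 0.500). With DESeq2 it was -0.11 (unadjusted p = 0.601). Both take their scaling from the selected genes. With the deposited size factors, added after seeing the data, it was -0.43 (edgeR unadjusted p = 0.0304). The size of this decrease thus depends on the scaling, and was small only where the scaling came from the selected genes. The difference of the diet changes of Acot3 became -0.029 without LF-fed TSP1F/F mouse 4.
The counts of called genes depended most on the setting. In TSP1F/F mice 40 genes became 649 with DESeq2, 62 with no filter (60 higher), 1124 when adjusted over the listed genes, and, with a mouse left out, 2 (without LF-fed mouse 4) to 22, or 43 without LF-fed mouse 3. In TSP1ΔPf4 mice 27 became 95 with TMM (84 higher and 11 lower), 1141 with DESeq2, 2187 when adjusted over the listed genes, and, with a mouse left out, 0 (without LF-fed mouse 2 or 4 or AMLN-fed mouse 3) to 20, or 79 (39 higher and 40 lower) without LF-fed mouse 3. On the LF diet 0 became 1 with DESeq2, and on the AMLN diet 66 became 22 (without TSP1ΔPf4 mouse 2) to 84 with a mouse left out, and also 30, 33 and 36 without TSP1ΔPf4 mouse 3, TSP1ΔPf4 mouse 1 and TSP1F/F mouse 3. All 16 mice in 1 fit gave 7 higher and 47 lower there, beside 4 and 62.
With DESeq2 the diet change passed the threshold in TSP1F/F mice for Acot3 (-1.86, adjusted p = 0.0281), Cyp4a14 (-1.82, adjusted p = 0.0109) and Glyctk (-0.93, adjusted p = 0.00461) and in TSP1ΔPf4 mice for Glyctk (0.92, adjusted p = 0.0109). DESeq2 estimates its size factors from the selected genes and moved the median log2 change of all genes from 1.15 to 0.78 in TSP1F/F and from -0.54 to -0.20 in TSP1ΔPf4 mice. Adjusted over the listed genes only, edgeR's p passed for Acot3 (-1.52 and -1.20), Cyp4a14 (-1.48 and -0.44) and Glyctk (-0.56 and 0.59) in TSP1F/F and TSP1ΔPf4 mice, with adjusted p from 0.0231 to 0.0435. The listed genes had already been selected on these mice, so this adjustment adds no evidence.
The AMLN genotype difference was 1.81 with TMM and 1.85 with DESeq2 for Fbxo31, and 1.34 and 1.40 for Glyctk, and the difference of the diet changes was 1.30 and 1.26 for Fbxo31 and 1.54 and 1.47 for Glyctk. With TMM the within-group r was 0.24 for Acot3 and Fbxo31, -0.068 for Acot3 and Glyctk, 0.83 for Cyp4a14 and Fbxo31, 0.44 for Cyp4a14 and Glyctk, and 0.78 for Fbxo31 and Glyctk.
The groups share replicate numbers, and the labels do not say that a number marks anything shared. Correlations of same-numbered mice 1 to 4 were 0.31, -0.09, -0.37 and -0.24 between the diets in TSP1F/F and -0.08, 0.31, -0.50 and -0.06 in TSP1ΔPf4 mice. Between the genotypes they were 0.27, 0.11, 0.51 and -0.06 on the LF diet, where mice 1, 2 and 3 correlated best with their own number, and 0.30, 0.09, 0.34 and 0.44 on the AMLN diet, where mice 1, 3 and 4 did, a hint from the data, not the design. In no comparison was every pair over 0.1, so the numbers were not taken to pair the mice. Acot3 was lowest in mouse 1 and highest in mouse 4 in all 4 groups. A replicate block gave 3 called genes in TSP1F/F and 0 in TSP1ΔPf4 mice for diet, 0 on the LF diet and, added after seeing the data, 116 (13 higher, 103 lower) on the AMLN diet. With the block the unadjusted p on the LF diet went from 0.0152 to 0.000723 for Acot3 and from 0.145 to 0.0108 for Cyp4a14 (edgeR adjusted p = 0.231 and 0.282), and no member was called in a comparison that was tested. The selection of the listed genes and 4 mice per group limit what any p-value here can show.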
